A study of Homo sapiens with 4 samples.

Results

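Genes named LINC followed by digits, the symbol given to long intergenic non-coding RNAs, were examined in SU-DHL-2, an established human line of diffuse large B-cell lymphoma. Members were chosen by their measured level alone, as a mean of at least 1 count-per-million (CPM) of the library total over all 4 libraries. Of 61267 genes in the count table, 2268 carry such a name and 121 met the minimum. A further 727 had reads but lay below it, and 1420 had no read in any library. The 4 libraries were stranded mRNA libraries from SU-DHL-2 cells of wild-type genotype: 2 received vehicle (solvent) and 2 received Spautin-1 at 10 µM for 36 h. Spautin-1 is known as a small inhibitor of USP10 and USP13, enzymes that remove ubiquitin from proteins. All are from 1 cell line, so nothing here extends to other lymphomas, and the labels do not say that replicates came from separate cultures. The p-values therefore reflect the spread among these samples alone, and that spread may be technical.

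Long intergenic non-coding RNAs are transcribed by RNA polymerase II, capped and usually spliced and polyadenylated like mRNAs, but hold no long conserved reading frame. As a class they are known for low levels, strong dependence on cell type and poor sequence conservation, and many start next to a protein-coding gene on the other strand, at a shared promoter. Some act on genes close by, some scaffold protein complexes or bind microRNAs, and for most no function is established. In B cells, LINC00926 is a widely used marker transcript in single-cell surveys.

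The promoters of 6 members that differed between the groups are shown first, 3 of them from members that were higher with Spautin-1 and 3 from members that were lower, picked after their values were known and because the RefSeq start lies within 78 bases of the start in the count table. Each window holds 250 bases before and 50 bases from the start of the RefSeq model (GRCh38.p14), read 5′ to 3′ on the gene's own strand. Capitals mark matches, on either strand, to 7 motifs. The AP-1 element was searched as TGACTCA and the E-box as CACGTG. The cyclic AMP response element was searched in full as TGACGTCA and also by its core, the first 5 letters, which overlaps it. The TATA box was searched as TATAAA, the CCAAT box by the letters of its name, and the NF-kB motif completes the set.
LINC00463 (higher, chr13:25179952-25180251, minus strand): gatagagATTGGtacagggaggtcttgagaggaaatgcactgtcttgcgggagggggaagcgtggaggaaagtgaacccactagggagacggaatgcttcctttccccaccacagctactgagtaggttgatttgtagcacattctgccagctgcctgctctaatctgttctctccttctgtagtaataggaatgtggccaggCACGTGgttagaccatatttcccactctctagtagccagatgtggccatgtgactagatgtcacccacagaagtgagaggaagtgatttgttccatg
LINC03040 (higher, chr6:44000335-44000634, plus strand): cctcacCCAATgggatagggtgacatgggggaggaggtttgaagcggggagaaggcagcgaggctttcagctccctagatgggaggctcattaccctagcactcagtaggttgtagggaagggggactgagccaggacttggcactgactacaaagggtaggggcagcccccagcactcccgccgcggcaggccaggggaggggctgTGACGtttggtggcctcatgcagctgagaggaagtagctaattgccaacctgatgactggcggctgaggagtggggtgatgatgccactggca
LINC01504 (higher, chr9:72305186-72305485, plus strand): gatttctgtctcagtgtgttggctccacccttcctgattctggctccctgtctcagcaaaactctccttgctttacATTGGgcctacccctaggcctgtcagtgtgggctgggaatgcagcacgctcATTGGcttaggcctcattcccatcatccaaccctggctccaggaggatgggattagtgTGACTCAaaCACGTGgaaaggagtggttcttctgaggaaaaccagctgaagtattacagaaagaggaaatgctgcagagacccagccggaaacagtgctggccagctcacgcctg
LINC01215 (lower, chr3:108125571-108125870, plus strand): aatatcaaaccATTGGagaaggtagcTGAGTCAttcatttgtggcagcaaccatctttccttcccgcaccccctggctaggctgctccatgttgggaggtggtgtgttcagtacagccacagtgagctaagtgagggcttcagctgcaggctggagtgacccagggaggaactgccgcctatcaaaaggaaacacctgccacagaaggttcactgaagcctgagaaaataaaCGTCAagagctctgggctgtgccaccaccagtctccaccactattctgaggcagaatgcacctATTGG
LINC02202 (lower, chr5:159100233-159100532, plus strand): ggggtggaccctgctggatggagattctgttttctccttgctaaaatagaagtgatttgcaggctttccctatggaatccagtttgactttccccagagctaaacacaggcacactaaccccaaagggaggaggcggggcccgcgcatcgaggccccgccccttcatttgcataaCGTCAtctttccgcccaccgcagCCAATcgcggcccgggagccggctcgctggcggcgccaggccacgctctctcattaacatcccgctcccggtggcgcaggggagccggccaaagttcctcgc
LINC00641 (lower, chr14:21206851-21207150, minus strand): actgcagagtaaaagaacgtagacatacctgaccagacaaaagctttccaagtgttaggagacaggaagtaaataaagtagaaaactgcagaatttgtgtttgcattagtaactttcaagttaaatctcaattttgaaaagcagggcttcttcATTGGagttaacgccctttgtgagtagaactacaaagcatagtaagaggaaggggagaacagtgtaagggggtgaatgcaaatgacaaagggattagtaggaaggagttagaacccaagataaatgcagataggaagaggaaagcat

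All 6 windows hold the CCAAT box on one strand or the other. The E-box is found in the windows of LINC00463 and LINC01504, and the AP-1 element in those of LINC01504 and LINC01215. The LINC02202 window, beside the start of EBF1, has 21 CpG dinucleotides, against 2 in that of LINC00641. Of the 75 members with a RefSeq promoter entry, 60 have a RefSeq start within 1000 bases of the start in the count table, and for the other 15 the window lies farther from that start. Over all 75, the CCAAT box was present in 42, compared with 36.2% of 19094 promoters of the same length. It was present in 8 of the 11 matched members that were called higher, in 10 of the 13 called lower and in 24 of the 51 that were not called. The AP-1 element was present in 5 of the 75 (4.21% of all promoters), the cyclic AMP response element in 3 (2.44%), its core in 16 (28.3%), the TATA box in 11 (10.2%), the E-box in 7 (8.36%) and the NF-kB motif in 0 (1.94%). These matches are descriptions of the letters in the windows.

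Total counts were 34115420 and 38362526 for vehicle, and 38325536 and 34893634 for Spautin-1. The 8 B cell markers all reached 1 CPM, with summed levels of 768 and 680 CPM in vehicle and 1039 and 1001 CPM in Spautin-1. None of the markers of T cells, myeloid cells, stroma or endothelium reached 1 CPM, and each of those lists summed to between 0.289 and 1.10 CPM in every library. In bulk libraries such as these, fewer cells of a kind and less RNA per cell cannot be told apart. CPM values are scaled by TMM, these sums included, except for mean levels over the 4 libraries and for the minimum, which are CPM of the library total.

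The members together took a small and even share of the libraries. They held 0.115% and 0.114% of all counts in vehicle and 0.111% and 0.109% with Spautin-1. Their summed levels were 1129 and 1135 CPM in vehicle and 1132 and 1099 CPM with Spautin-1, so the groups overlapped. Levels were low and uneven: the median of the mean levels was 2.79 CPM of the total, 43 members lay between 1 and 2 CPM, 41 between 2 and 5, 20 between 5 and 10, and 17 at 10 or above. Just inside the minimum were LINC01353, LINC01169 and LINC02649 at means of 1.02, 1.01 and 1.01 CPM of the total, and just outside were LINC03016, LINC01393 and LINC00526 at 0.952, 0.944 and 0.922 CPM.

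LINC00926 (chr15:57300365-57307769, plus strand), the B cell transcript, was the most abundant member. It stood at 233 and 237 CPM in vehicle and 234 and 233 CPM in Spautin-1, which is 20.7% to 21.2% of all member counts in each library. The groups overlapped, and the log2 fold change was -0.01 ± 0.10 (± SE, by edgeR, adjusted p = 0.952). LINC00342 (chr2:95807052-95835003, minus strand) followed at 146 and 144 and 159.9 and 141 CPM, and LINC02067 (chr3:161426427-161448242, plus strand) at 66.3 and 81.0 and 77.8 and 79.7 CPM. Neither was called, and their libraries overlapped between the groups. LINC02067 shares 119 of its exonic bases (4.18%) with RPL23AP42 on the other strand. RPL23AP42 had 2522 and 3448 counts in vehicle and 3216 and 2999 with Spautin-1. LINC02067 had 2302 and 3131, and 2920 and 2762, so its level cannot be told apart from reads of RPL23AP42. LINC00926, LINC00342 and LINC02067 made up 39.5% to 41.7% of the member counts, and the other 118 the rest.

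Per kilobase of exon, the order changed. LINC02951, whose annotated exons total only 436 bases, stood at 78.1 CPM per kb in vehicle and 61.8 with Spautin-1 (group means). LINC00926 stood at 64.2 and 63.7, so LINC02951 was the higher in vehicle and LINC00926 with Spautin-1. The libraries of LINC02951 stood at 33.1 and 35.0 CPM in vehicle and 27.2 and 26.7 CPM with Spautin-1, separated but not called (log2 fold change -0.34 ± 0.13, edgeR adjusted p = 0.0802). It was called lower without vehicle replicate 1 and with an offset for GC content, at adjusted p of 0.0115 and 0.0247. Of its exonic bases, 67.7% also belong to RAB30-DT on the other strand, a transcript that was itself called lower (43.7 ± 1.21 against 31.0 ± 0.0189 CPM). RAB30-DT had 1547 and 1655 counts in vehicle and 1164 and 1074 with Spautin-1. The level of LINC02951 therefore cannot be told apart from reads of RAB30-DT. Then came LINC02067 (25.9 and 27.7 CPM per kb), LINC00342 (16.8 and 17.5), LINC01890 (10.7 and 19.8) and LINC01215 (12.7 and 6.67). The level of LINC02067 per length has the limit given above for its shared exon with RPL23AP42. LINC00674 and LINC01881, also among the 10 highest per kb, share 156 of 160 and 412 of 412 exonic bases with a same-strand gene, so their level per length cannot be told apart from that gene's; neither was called.

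**Figure D1:**
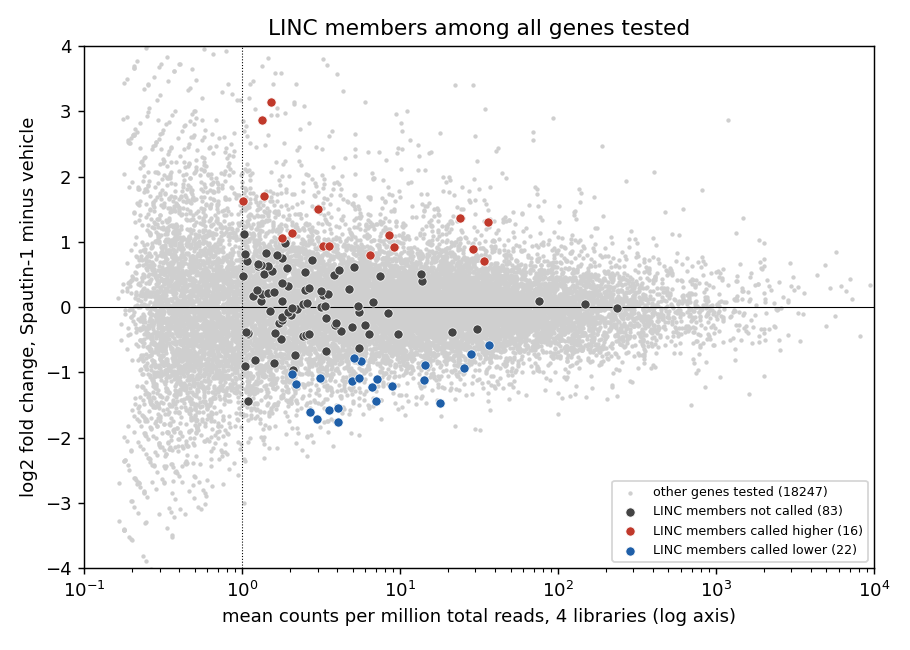
Log2 fold change of Spautin-1 minus vehicle (vertical axis, edgeR) against mean CPM of the library total over 4 libraries (horizontal axis, log scale) for the 121 LINC members and the other genes tested; the dotted line is the minimum of 1 and the vertical axis stops at 4 in each direction, which leaves out some other genes. The 16 members called higher are red, the 22 called lower blue and the 83 not called dark grey; LINC00463 and LINC01473 stand highest, and no member called lower lies between 1 and 2.

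Whether the compound changed these transcripts was asked in the fit over all 18368 genes that passed a filter on low counts, which all 121 members passed. With Spautin-1, 16 members were called higher and 22 lower (quasi-likelihood test of edgeR, p adjusted over all genes tested and under 0.05). That is 13.2% and 18.2% of the members, where 11.5% and 10.5% of all genes tested were called. Among genes that also averaged at least 1 CPM, the shares were 13.7% and 12.6%, or 26.3% together. For all genes tested the shares add to 22.0%, and for the members to 31.4%. In all 38 called members the groups did not overlap, and the same was true, without a call, of 42 others. Groups did not overlap in 66.1% of members and in 61.4% of all genes tested. The median log2 fold change of the members was 0.01 (−0.01 for all genes tested), and their quartiles were −0.48 and 0.56 (−0.39 and 0.36). At least a 2-fold change was seen in 10 of the higher and 16 of the lower members.

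The minimum itself admits members through 1 group. In 9 members the vehicle mean was under 1 CPM of the total, and 4 of these were called higher; in 6 the Spautin-1 mean was under 1, and 0 of these were called lower by edgeR (1 at an unadjusted p under 0.05). Among the 106 members at 1 CPM or more in both groups, 12 were called higher and 22 lower. Between 1 and 2 CPM, 5 of 43 members were called, all 5 higher (11.6%, against 13.3% of all genes tested at that level, in both directions). From 2 to 5 CPM, 4 were called higher and 9 lower of 41 (31.7% against 17.5%). At 5 CPM or more, 7 were called higher and 13 lower of 37 (54.1% against 31.0%). Replicates of members differed by a median of 1.24 times in vehicle and 1.19 times in Spautin-1, where genes averaging at least 1 CPM differed by 1.17 and 1.10 times.

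**Figure D2:**
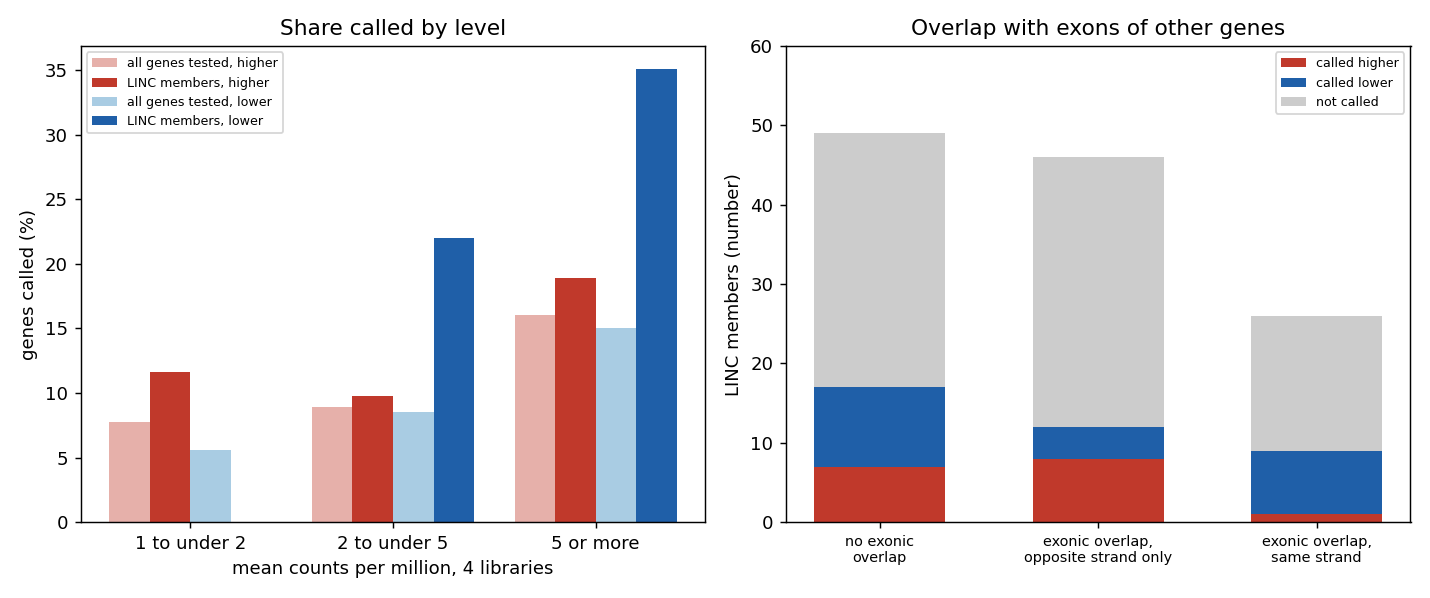
Left, share of genes called higher (red) and lower (blue) by edgeR at 3 levels of mean CPM, for all genes tested (pale) and LINC members (dark), in percent; at 5 or more, 35.1% of members and 15.0% of all genes were called lower. Right, number of LINC members called higher, called lower and not called, by whether their exons overlap exons of another gene; 49 members have no such overlap.

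The 4 largest increases, those of LINC00463, LINC01473, LINC01053 and LINC02649, were in transcripts that were scarce in vehicle and met the minimum only through their level with Spautin-1, so their size is partly set by the choice of members. LINC00463 (chr13:25172819-25180079, minus strand) had 8 and 15 counts in the vehicle libraries and 103 and 98 in the Spautin-1 libraries, or 0.230 and 0.388 CPM and 2.75 and 2.83 CPM. Both treated libraries stood far above both controls, an 8.85-fold higher level (log2 fold change 3.15 ± 0.43, edgeR adjusted p = 0.000376). It lies inside the body of LINC01053 (chr13:25168969-25190643, plus strand), which runs on the opposite strand and shares no exonic base with it. LINC01053 had 22 and 26 counts in vehicle and 92 and 63 with Spautin-1, or 0.633 and 0.673 and 2.45 and 1.82 CPM. It rose 3.26-fold with no overlap between groups (log2 fold change 1.70 ± 0.40, edgeR adjusted p = 0.0102), and lost the call without Spautin-1 replicate 1 (adjusted p = 0.0835). AMER2, a Wnt pathway regulator that is the nearest protein-coding gene to both, was near absent, at 0.109 ± 0.00823 CPM in vehicle and 0.0800 ± 0.113 CPM with Spautin-1 (SD, n = 2 each), and was not tested.

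LINC01473 (chr2:186032884-186486005, minus strand) starts 248 bases from the start of ZC3H15, which encodes a zinc finger protein that binds the GTPase DRG1. It went from 9 and 15 counts in vehicle to 88 and 84 with Spautin-1, or from 0.259 and 0.388 to 2.35 and 2.42 CPM. It rose 7.26-fold (log2 fold change 2.86 ± 0.44, edgeR adjusted p = 0.000849) with a wide gap between the groups. ZC3H15 itself, a highly expressed gene, was not called (910.0 ± 13.3 against 842 ± 2.59 CPM, log2 fold change -0.11 ± 0.08, adjusted p = 0.364).

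On chromosome 10, LINC02649 (chr10:6271169-6353827, plus strand) and LINC02656 (chr10:6350316-6352762, plus strand), which lies within its body on the same strand with no shared exon, were both higher. LINC02649 stood at 0.633 and 0.362 CPM in vehicle and 1.6 and 1.47 CPM with Spautin-1 (3.09-fold, edgeR adjusted p = 0.0307). LINC02656 stood at 0.979 and 1.35 and 2.40 and 2.48 CPM (2.09-fold, edgeR adjusted p = 0.0453). Neither pair of groups overlapped, but both calls rest on low counts: LINC02649 lost its call without vehicle replicate 2 or either Spautin-1 replicate (adjusted p of 0.0930, 0.116 and 0.0840), and LINC02656 without any library but vehicle replicate 2, with DESeq2 (0.0699) and with the GC offset (0.0584). PFKFB3, which encodes a regulatory enzyme of glycolysis, lies 16525 bases from LINC02649. PFKFB3 was also called higher (35.1 ± 2.50 against 51.5 ± 4.82 CPM, log2 fold change 0.56 ± 0.13, edgeR adjusted p = 0.00969). That call was lost without Spautin-1 replicate 2, where the log2 fold change of PFKFB3 was 0.466.

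Among the more abundant members, LINC03040 (chr6:44000580-44007612, plus strand), which GENCODE 29 lists as protein-coding under an older name, had the smallest adjusted p of the members. It stood at 20.1 and 21.6 CPM in vehicle and 54.4 and 48.2 CPM with Spautin-1, with tight replicates and no overlap. The increase was 2.46-fold (log2 fold change 1.30 ± 0.13, edgeR adjusted p = 4.79e-05). SCIRT, a non-coding gene on the other strand that shares 277 of its 5571 exonic bases (4.97%), rose with it (12.8 ± 0.233 to 29.5 ± 3.28 CPM, 2.30-fold, adjusted p = 0.000203). LINC00327 (chr13:23465776-23487712, plus strand) stood at 14.3 and 12.9 CPM in vehicle and 31.4 and 38.4 CPM with Spautin-1, again without overlap. It rose 2.57-fold (log2 fold change 1.36 ± 0.15, edgeR adjusted p = 9.89e-05).

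LINC01013, LINC00877 and LINC02328 complete the 10 largest increases. LINC01013 (chr6:131901848-132169992, plus strand) rose from 1.44 and 1.73 to 5.14 and 3.90 CPM (2.84-fold, edgeR adjusted p = 0.00305). Its exons overlap 278 bases of CCN2, the matricellular growth factor gene on the other strand, which was listed at 0 ± 0 CPM in vehicle and 0.0800 ± 0.113 CPM with Spautin-1, so that locus carried almost no CCN2 signal. LINC00877 (chr3:71943592-72279503, minus strand) rose from 4.98 and 5.82 to 12.5 and 10.7 CPM (2.14-fold, edgeR adjusted p = 0.00188). LINC02328 (chr14:85911438-86161539, plus strand) rose from 1.44 and 1.19 to 3.1 and 2.63 CPM (2.19-fold, edgeR adjusted p = 0.0259), and was not called without Spautin-1 replicate 1 or 2 (adjusted p of 0.146 and 0.0505). In all 3 both treated libraries lay above both controls.

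LINC01890 (chr2:68822855-68837235, minus strand), one of the highest members per kilobase, stood at 18.1 and 22.9 CPM in vehicle and 39.9 and 36.1 CPM with Spautin-1. The groups did not overlap and the rise was 1.85-fold (log2 fold change 0.89 ± 0.15, edgeR adjusted p = 0.00142). It overlaps the body of ARHGAP25, a GTPase-activating protein of blood cells on the other strand, sharing 18 exonic bases (0.940% of its exons), and ARHGAP25 rose by a similar 1.83-fold (64.6 ± 0.780 to 118 ± 4.49 CPM, adjusted p = 0.000219). The other 5 called increases, named after their values were seen, were LINC01504, LINC01320, LINC00888, LINC01943 and LINC00467, with log2 fold changes of 0.94, 0.93, 0.91, 0.79 and 0.70. LINC01504 lost its call without Spautin-1 replicate 2 (adjusted p = 0.115), LINC01320 without vehicle replicate 1 (0.0856) or Spautin-1 replicate 1 (0.185), LINC00888 without Spautin-1 replicate 2 (0.0732) and LINC01943 without Spautin-1 replicate 1 (0.224).

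**Figure D3:**
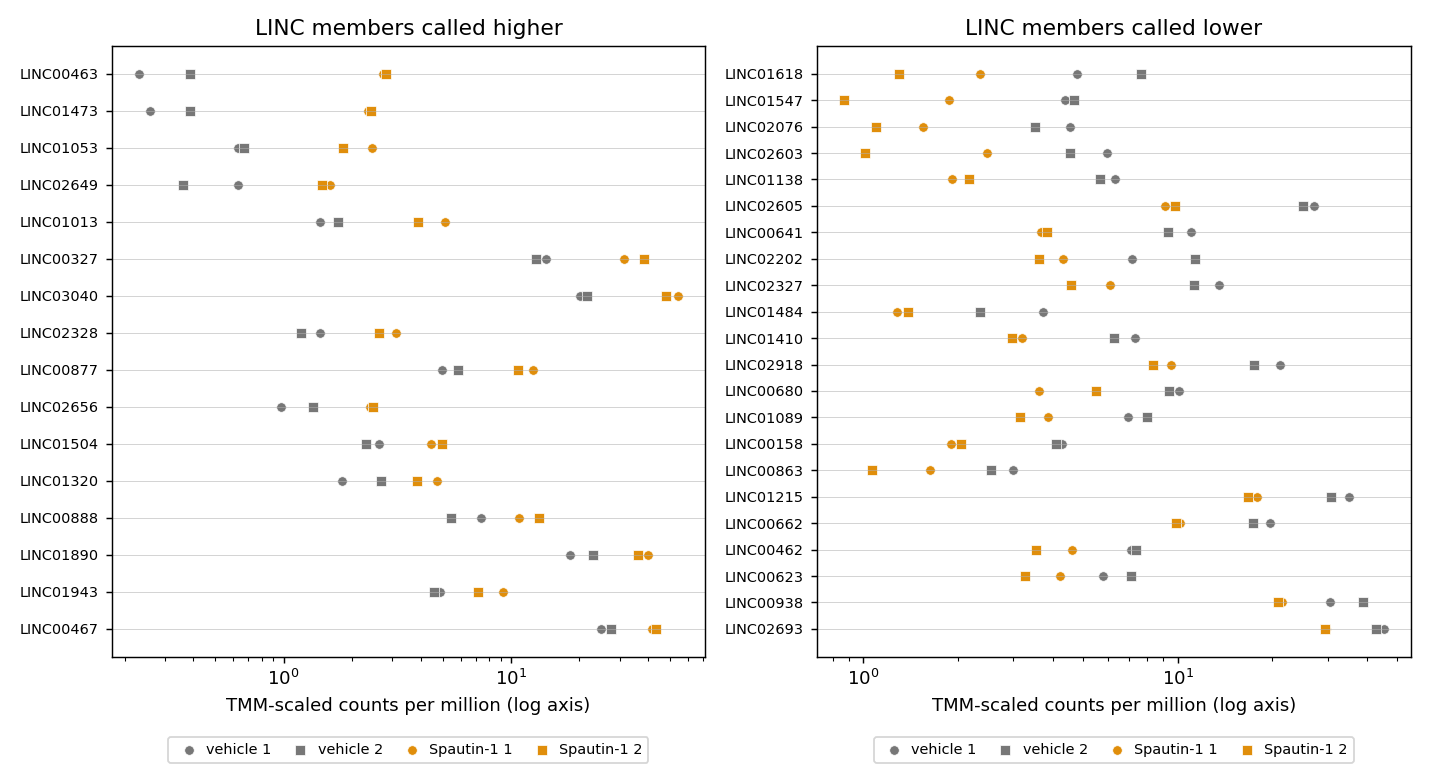
Level in each library, in TMM-scaled CPM on a log axis, of the 16 LINC members called higher (left) and the 22 called lower (right), ordered by the size of the log2 fold change from the top. Grey symbols are the vehicle libraries and orange symbols the Spautin-1 libraries, circles replicate 1 and squares replicate 2; in every line both orange symbols lie on the same side of both grey ones.

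Decreases reached −1.77 on the log2 scale, and 13 of the 22 were in members that averaged at least 5 CPM. LINC02605 (chr8:78835307-78840525, plus strand), which the RefSeq table also lists as IL-7-AS, stood at 27.1 and 25 CPM in vehicle and 9.09 and 9.78 CPM with Spautin-1. Both treated libraries lay well under both controls, a 2.76-fold lower level (log2 fold change -1.47 ± 0.15, edgeR adjusted p = 5.60e-05). IL7, the lymphocyte growth factor gene on the opposite strand 29784 bases away, was not called (5.08 ± 0.948 against 4.16 ± 1.39 CPM, log2 fold change -0.29 ± 0.27, adjusted p = 0.498). LINC00641 (chr14:21200079-21206900, minus strand) stood at 11 and 9.34 CPM in vehicle and 3.68 and 3.84 CPM with Spautin-1, without overlap. It fell 2.70-fold (log2 fold change -1.43 ± 0.20, edgeR adjusted p = 0.000487). HNRNPC, the RNA-binding protein gene 2236 bases away on the same strand, was not called (1997 ± 44.9 against 2107 ± 7.10 CPM, log2 fold change 0.08 ± 0.07, adjusted p = 0.510).

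LINC02202 (chr5:159100483-159117478, plus strand) starts 567 bases from EBF1, which encodes a transcription factor of the B cell lineage and runs the other way. LINC02202 stood at 7.14 and 11.3 CPM in vehicle and 4.32 and 3.61 CPM with Spautin-1, so the vehicle libraries differed by more than the treated ones, but no treated library reached a control. It fell 2.33-fold (log2 fold change -1.22 ± 0.25, edgeR adjusted p = 0.00458). EBF1 moved the opposite way, from 26.5 ± 0.453 to 42.6 ± 0.465 CPM (SD, n = 2 each), a rise of 1.61-fold (log2 fold change 0.68 ± 0.12, edgeR adjusted p = 0.00239). Of the 13 members whose start lies within 2000 bases of that of a protein-coding gene on the opposite strand, this was the only pair called in opposite directions. In 1 pair, LINC01089 and the histone methyltransferase gene SETD1B, starts 103 bases apart, both were called lower: LINC01089 (chr12:121795267-121803906, minus strand) stood at 6.97 and 8.0 CPM in vehicle and 3.87 and 3.15 CPM with Spautin-1 (2.13-fold, edgeR adjusted p = 0.00468), and SETD1B at 33.4 ± 2.54 and 16.5 ± 2.11 CPM (2.02-fold, adjusted p = 0.000598). The exons of LINC01089 share 1724 bases with RHOF, a small GTPase gene on the same strand that was not called (adjusted p = 0.869), and 2603 with a pair of genes on the other strand that the count table lists without a symbol and that were both called lower. Of that pair, 1 covers 57.9% of the LINC01089 exons, with 203 and 251 counts in vehicle and 105 and 95 with Spautin-1. LINC01089 had 242 and 309, and 145 and 109, so its decrease cannot be told apart from reads of that gene. LINC01089 lies outside the rule for named genes and was picked after its values were seen.

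With all 4 libraries, the 2 largest decreases were those of LINC01618 and LINC01547. LINC01618 (chr4:52712394-52866821, plus strand) stood at 4.78 and 7.66 CPM in vehicle and 2.35 and 1.30 CPM with Spautin-1, a 3.40-fold lower level in separated groups (log2 fold change -1.77 ± 0.33, edgeR adjusted p = 0.00257). It shares exons with RASL11B, a small GTPase gene with 0.216 ± 0.0609 CPM in vehicle, and with the non-coding DANCR, which was not called (log2 fold change -0.33 ± 0.14, adjusted p = 0.123). LINC01547 (chr21:44932814-44939941, minus strand) stood at 4.38 and 4.68 CPM in vehicle and 1.87 and 0.866 CPM with Spautin-1, again separated (3.29-fold lower, edgeR adjusted p = 0.00407). With 1 library left out, its log2 fold change ran from -2.39 (without Spautin-1 replicate 1) to -1.27. SLX9, with its start 84 bases away, was not called (log2 fold change -0.19 ± 0.23, adjusted p = 0.614), but was called lower without vehicle replicate 1 (−0.53, adjusted p = 0.000320).

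LINC02603 (chr9:94176494-94259545, minus strand) stood at 5.96 and 4.55 CPM in vehicle and 2.48 and 1.01 CPM with Spautin-1, a wide spread within the treated group but no overlap. It was 2.99-fold lower (log2 fold change -1.58 ± 0.36, edgeR adjusted p = 0.00848). With 1 library left out, its log2 fold change ran from -2.38 (without Spautin-1 replicate 1) to -1.07. Its exons share 1297 bases (47.6%) with MIRLET7A1HG, a host gene of let-7 microRNAs on the other strand, which was also lower (9.35 ± 0.859 to 3.28 ± 0.560 CPM, 2.84-fold, adjusted p = 0.000580). MIRLET7A1HG had 346 and 338 counts in vehicle and 138 and 100 with Spautin-1. LINC02603 had 207 and 176, and 93 and 35, so its decrease cannot be told apart from reads of MIRLET7A1HG. The zinc finger gene ZNF169 across the start gave -1.07 ± 0.40 and was not called (adjusted p = 0.0758), though it was with no filter (0.0144), with the replicate block (0.0218), with the GC offset (0.0444), without vehicle replicate 2 (0.000342) and without Spautin-1 replicate 2 (0.0435).

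LINC02076 (chr17:18411159-18414380, plus strand), LINC01138 (chr1:148290889-148519604, minus strand) and LINC02327 (chr14:28829881-28968400, plus strand) stood in vehicle at 4.55 and 3.52, 6.31 and 5.64 and 13.5 and 11.3 CPM, and with Spautin-1 at 1.55 and 1.10, 1.92 and 2.16 and 6.10 and 4.56 CPM, in that order. They were 3.04-fold, 2.92-fold and 2.32-fold lower, with no overlap (edgeR adjusted p of 0.00347, 0.00102 and 0.00150). LINC01484 (chr5:173707614-173746279, minus strand), the tenth by size, went from 3.71 and 2.36 to 1.28 and 1.39 CPM and was 2.27-fold lower (edgeR adjusted p = 0.0264), a call lost without vehicle replicate 1 or either Spautin-1 replicate (0.148, 0.0633 and 0.0623). LINC01138 lies in a part of chromosome 1 with many near-identical copies, and reads may have been split among them.

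Among the members highest per kilobase, LINC01215 and LINC02918 were called lower. LINC01215 (chr3:108125821-108138610, plus strand) stood at 35.2 and 30.7 CPM in vehicle and 17.8 and 16.8 CPM with Spautin-1, 1.91-fold lower in separated groups (log2 fold change -0.93 ± 0.14, edgeR adjusted p = 0.000795). It shares no exon with another gene. LINC02918 (chr1:43937918-43940781, minus strand) stood at 21.2 and 17.4 CPM in vehicle and 9.54 and 8.34 CPM with Spautin-1, 2.16-fold lower (log2 fold change -1.11 ± 0.17, edgeR adjusted p = 0.000879), also without overlap. The remaining called decreases, listed in the plot of called members by library, had log2 fold changes from −1.14 (LINC01410) to −0.58 (LINC02693). LINC00863, LINC00462, LINC00623, LINC00938 and LINC02693 lost their calls without Spautin-1 replicate 2 (adjusted p of 0.285, 0.194, 0.247, 0.0548 and 0.108). LINC00863 also lost it without vehicle replicate 1 (0.0926), with DESeq2 (0.0655) and with limma-voom (0.0506), LINC00623 without vehicle replicate 2 (0.0699) and LINC02693 without Spautin-1 replicate 1 (0.0706).

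The name says intergenic, but the annotation used for counting often does not. Of the 121 members, 49 share no exonic base with another gene, 46 share some with a gene on the opposite strand only and 26 with one on the same strand. Reads in shared exons cannot be given to 1 gene with certainty here, since the strandedness of counting was not given. In 243 genes whose exons lie wholly within those of an opposite-strand gene, counts were a median of 0.503 of those its density predicts. For 161 such genes within a same-strand gene the median was 0.204. Counts of 0 were found in 9 of the 243 and in 6 of the 161. Every base of such a gene is shared, so the others took their counts from reads in shared exons. Whether these counts are reads of the contained genes themselves was not tested. In the 49 members without overlap, 7 were called higher and 10 lower. With overlap on the opposite strand only, 8 were called higher and 4 lower, and with overlap on the same strand 1 was called higher and 8 lower. The 43 members that start within 2000 bases of an opposite-strand start had 2 called higher and 12 lower, with a median log2 fold change of −0.27. Over all members 13.2% were called higher and 18.2% lower, and over all genes tested 11.5% and 10.5%. None of these differences between position classes was tested.

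The nearest protein-coding gene was tested for 17 of the called members with one within 50 kb. In 7 such pairs the member was called higher, and the coding gene was called higher in 4 of them and lower in 0. In 10 pairs the member was called lower, and the coding gene was called higher in 1, EBF1, and lower in 0. The other 9 were not called. LINC01089 is paired here with RHOF, whose body it overlaps, and not with SETD1B, which was called lower. In 53 pairs the member was not called, and the coding gene was called higher in 9 (17%) and lower in 6 (11.3%). For protein-coding genes and their own nearest coding neighbour, 22.1% of 1239 neighbours of higher genes were higher, and 24.3% of 1157 neighbours of lower genes were lower. Of 7469 neighbours of coding genes that were not called, 10.7% were higher and 10.8% lower. The 4 pairs called higher together were LINC02649 with PFKFB3, LINC01890 with ARHGAP25, LINC01504 with ZFAND5, a ubiquitin-binding zinc finger protein, and LINC00467 with the signalling adaptor TRAF5. Bodies overlap in LINC01890 and LINC01504. Among the 5 higher members whose bodies do not overlap the neighbour's, the neighbour was called higher in 2 and lower in 0. One of these, LINC02649, met the minimum only through its level with Spautin-1, so its call is partly set by the choice of members. LINC01504 stood at 2.62 and 2.30 CPM in vehicle and 4.45 and 4.96 CPM with Spautin-1, and shares 126 of its exonic bases with ZFAND5 (14 ± 0.0469 to 22.5 ± 0.422 CPM, 1.61-fold, edgeR adjusted p = 0.00577). ZFAND5 had 484 and 541 counts in vehicle and 832 and 789 with Spautin-1, where LINC01504 had 91 and 89, and 167 and 172. The part of ZFAND5 reads in the increase of LINC01504 was not tested. LINC00467 stood at 24.8 and 27.5 and 41.5 and 43.6 CPM, and TRAF5, 7790 bases away, at 14.8 ± 1.56 and 22.8 ± 1.48 CPM (1.54-fold, adjusted p = 0.0122).

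**Figure D4:**
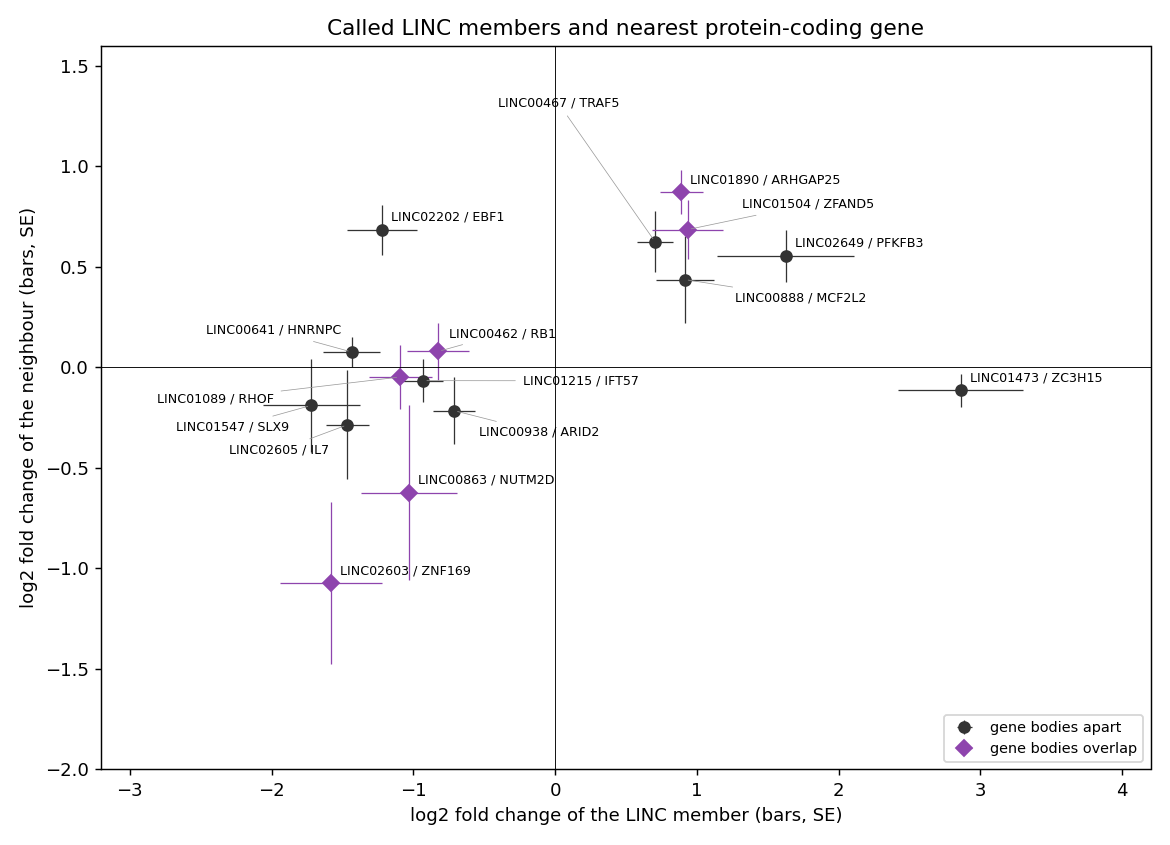
Log2 fold change (Spautin-1 minus vehicle, bars are SE) of 16 called LINC members (horizontal axis) and of the nearest protein-coding gene within 50 kb (vertical axis). Purple diamonds are pairs whose gene bodies overlap; LINC02202 and EBF1 stand alone at the upper left, and the neighbour of LINC01473 lies near 0 despite the large increase of that member.

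The series title names ferroptosis, an iron-dependent death driven by lipid peroxidation, and 5 LINC genes reported in that setting were looked up. LINC00472, also known as P53RRA and described as promoting ferroptosis, was the only one to reach the minimum. It stood at 12.8 and 9.68 CPM in vehicle and 16.1 and 15.7 CPM with Spautin-1, separated, with a log2 fold change of 0.50 ± 0.18 that was not called (edgeR adjusted p = 0.0587). It was called higher with no filter (0.0459), with limma-voom (0.0485), with the replicate block (0.0194) and without vehicle replicate 1 (0.000464). OGFRL1, which shares 949 of the 25534 exonic bases of LINC00472 on the other strand, was called higher (1.36-fold, edgeR adjusted p = 0.0168). OGFRL1 had 7299 and 6513 counts in vehicle and 9887 and 8751 with Spautin-1. LINC00472 had 444 and 374, and 603 and 545, so its level and change cannot be told apart from reads of OGFRL1. LINC00336, LINC01606 and LINC00239 were at or near 0 in every library and were not tested, and LINC00618 was not analysed here.

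Of the 6 LINC genes listed as enriched in B cells, LINC00926 and LINC02397 were members and neither was called. LINC01781 and LINC00487 had no read in any library. LINC00494 had 8 and 2 counts in vehicle and 0 and 0 with Spautin-1, and LINC01857 had 14 and 0, and 17 and 12. LINC02397 (chr12:92466451-92492091, plus strand) stood at 1.5 and 1.19 CPM in vehicle and 2.40 and 2.14 CPM with Spautin-1, separated but not called (log2 fold change 0.76 ± 0.34, edgeR adjusted p = 0.134). The summed level of the B cell markers, EBF1 among them, was higher with Spautin-1, as given above, and its part in the changes of the members was not tested.

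Long non-coding RNAs with other names moved both ways as well. In a list of 38, of which 32 were tested, 9 were called higher and 5 lower, where 11.5% and 10.5% of all genes tested were called, with a median log2 fold change of 0.08. MALAT1, the abundant nuclear speckle transcript, stood at 1455 and 1266 CPM in vehicle and 2417 and 2956 CPM with Spautin-1 (1.97-fold higher, edgeR adjusted p = 6.47e-05), while NEAT1, the scaffold of paraspeckles, gave 0.00 ± 0.09 on the log2 scale (adjusted p = 0.983). SNHG15, a snoRNA host, was 2.46-fold higher and CYTOR 2.00-fold higher (adjusted p of 4.23e-05 and 0.000471). LINC01943, which shares 405 of 1475 exonic bases with CYTOR on the other strand, was 1.73-fold higher (edgeR adjusted p = 0.0193), so that increase cannot be told apart from reads of CYTOR. LUCAT1 fell 3.82-fold, from 8.58 and 6.78 to 1.68 and 2.34 CPM, and EPB41L4A-AS1 2.24-fold (adjusted p of 0.000326 and 0.000117).

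With 2 libraries a group, an exact permutation test of any single member cannot go below p = 0.333, so every call rests on the spread that edgeR shares across genes. Of the 16 and 22 calls, 8 higher and 16 lower held in each fit that left out 1 library. Without Spautin-1 replicate 1, 10 members were called higher and 21 lower, and without Spautin-1 replicate 2, 11 and 16.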

How the data were processed

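Per the labels' protocols, TRIzol was used to extract the RNA and a VAHTS stranded mRNA kit to prepare the libraries. The authors deposited raw counts of reads per gene, with coordinates and exonic length, per the file headers. Trimmomatic 0.36, featureCounts (Subread 1.5.1), edgeR 3.12.1 and GRCh38 are named in the submitters' processing notes. The aligner, release of the annotation, strandedness of counting and handling of reads with several matches were not given in the sources used here. Between 75.5% and 78.1% of counts from 1 to 10 were even, as when both reads of a pair are counted, so a count is not an independent molecule.

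The counts were tested with edgeR 4.0.16 in R 4.3.3: filterByExpr by group with a minimum count of 10 and 15 in total, TMM scaling, quasi-likelihood test, two-sided, Benjamini-Hochberg adjustment over 18368 genes and a threshold of 0.05. "Called" means past that threshold, CPM values are TMM-scaled except for mean levels over all libraries and the minimum, and errors are SD (n = 2) for levels and SE for log2 fold changes. The procedure was tested on simulated data. The members, lists and position classes were chosen with earlier results of these data known. Named genes are the 10 highest members per kb of exon, the 10 largest called increases and decreases with their nearest coding gene, 3 members on each side of the minimum and the short lists; others are named as such. Biotypes came from GENCODE 29 and RefSeq, and a coding neighbour is the nearest within 50 kb.

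Alternatives were RLE, upper quartile and library size scaling, no filter, 1 CPM in 2 libraries, DESeq2 1.42.0, limma-voom (limma 3.58.1), robust empirical Bayes, a replicate block, GC offsets (loess, span 0.3), a threshold of 0.01, other minimums, and leaving out each library. Reads were not analysed here, and 1 coding neighbour is counted but not otherwise reported here or plotted.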

Additional observations from a re-analysis of the deposited data

How the results depend on the processing

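All settings that kept 4 libraries kept the direction of each named member that was called. Of the 16 higher and 22 lower calls, 15 and 21 held in all 10 such settings, and 8 and 16 also when any 1 library was left out. Leaving out 1 library gave 10 to 20 members called higher and 16 to 25 lower, and 1067 to 2981 and 780 to 2785 of all genes. A lone remaining library is then assumed to vary like the other group. At a threshold of 0.01, 1077 genes were higher and 861 lower, with 9 members higher and 17 lower. With a minimum of 5 CPM, 7 members were higher and 13 lower, and without exonic overlap 7 and 10, since fewer members are counted. The median log2 fold change of the members was -0.0257 with library size scaling against 0.0131 with TMM, and ran from -0.0492 to 0.0601 when a library was left out, so it has no stable sign. The labels do not say whether same-numbered libraries share a culture or day. The correlation over genes of same-numbered deviations was -0.00149, which with 2 libraries a group cannot decide whether the samples are paired. A replicate block gave 2615 genes higher and 2485 lower, and 19 and 25 members. Halving all counts, chosen after seeing the data, gave 2128 and 2044 genes and 16 and 23 members. Depth limits the low members: 43 of 121 lay below 2 CPM, and 26 of the 121 differed by over 1.5-fold between vehicle libraries and 20 between Spautin-1 libraries.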

Other observations

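LINC genes below the minimum but tested numbered 147. Of these, 6 were called higher and 5 lower with Spautin-1 (7.48%, edgeR adjusted p under 0.05), close to the 6.8% called among all tested genes with a mean under 1 CPM of the total. The members LINC01356 and LINC01357 lie on opposite strands and share 607 exonic bases, 75.8% of the exons of LINC01357. LINC01356 had 67 and 120 counts in vehicle and 101 and 90 with Spautin-1, and LINC01357 had 66 and 112, and 98 and 82, in the same libraries. Neither was called.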
